A study of Homo sapiens with 6 samples.

Results

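The nuclear-encoded respiratory chain subunits are the proteins of complexes I to V of the inner mitochondrial membrane whose genes lie in the nucleus. They were found by matching gene symbols to the standard names of these subunits (NDUF, SDH, UQCR, CYC1, COX and ATP5 genes). The match returned 104 of the 60611 genes in the count table, and 18 pseudogenes among them were left out, none with more than 6.5 counts in any library. The remaining 86 members were 37 of complex I, 4 of complex II, 9 of complex III, 17 of complex IV and 19 of complex V. RNA was measured in wild-type EndoC-BH5 cells, which are a beta-cell line of human pancreatic origin. Vehicle was given in 3 libraries, and the inflammatory cytokines interferon gamma and interleukin 1 beta were given jointly in the other 3. The labels call the replicates batches and do not state separate cultures, so each p-value reflects spread among these libraries that may be technical. The sources used here do not give cytokine doses or the length of exposure.

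Complex I, NADH dehydrogenase, and complex II, succinate dehydrogenase, pass electrons to coenzyme Q. Complex III passes them on to cytochrome c, complex IV (cytochrome c oxidase) passes them to oxygen, and complex V, the ATP synthase, uses the resulting proton gradient to make ATP. In a beta cell this ATP closes potassium channels of the plasma membrane, which links glucose oxidation to insulin release. All complexes but complex II also hold subunits encoded by the mitochondrial genome, so these enzymes are assembled from products of 2 genomes.

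Total counts ranged from 5871143 to 15893863 in the vehicle libraries and from 13689668 to 16175090 in the cytokine libraries, with a biological coefficient of variation of 3.47% over all genes tested. Summed levels of the 6 beta-cell markers were 9249 to 9936 CPM (counts scaled to library size and composition) with vehicle and 13152 to 13803 CPM with cytokines. Within that list the groups lay apart in both directions: IAPP was at 3807 to 4192 CPM with vehicle and 8093 to 8477 CPM with cytokines, and SLC30A8 at 506 to 537 and 236 to 247 CPM, while INS overlapped at 3893 to 4198 and 3371 to 3947 CPM. In sum the 4 alpha-cell markers overlapped, at 1883 to 2040 CPM with vehicle and 1927 to 2080 with cytokines, nearly all from TTR. Among them GCG lay at 43.5 to 46.2 CPM with vehicle and 24.8 to 26.9 CPM with cytokines. IRX2 went the other way, at 21.6 to 22.1 and 30.6 to 38.5 CPM, neither with overlap. The 2 delta-cell markers overlapped in sum, at 532 to 600 and 561 to 599 CPM. The ductal gene KRT19 was at 150 to 167 and 130 to 139 CPM, without overlap. The other ductal markers, CFTR and SPP1, stayed at or under 0.477 and 0.318 CPM in every library. Summed levels of the 4 leukocyte markers were 5.24 to 6.02 CPM with vehicle and 20.9 to 22.5 CPM with cytokines, nearly all from CD68, while PTPRC stayed at or under 0.234 CPM. Summed levels of the 3 stromal markers were 3.18 to 4.09 CPM and 12.4 to 13.8 CPM, nearly all from PDGFRB. The 4 acinar markers stayed at or under 5.97 CPM in sum, with PRSS1 and CELA3A at 0 in all 6 libraries, and the 2 endothelial markers at or under 0.643 CPM. The part of any of these in the subunit values was not tested. In bulk RNA, fewer cells of a type and less RNA per cell cannot be told apart.

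With cytokines the nuclear-encoded subunits moved little and in both directions. Of the 79 members with enough counts to test, 19 rose, 16 fell and 44 did not pass edgeR's quasi-likelihood test at an adjusted p of 0.05. The 35 members called were 44.3% of those tested, beside 57.1% of all 17847 genes tested and 65.3% of the 11431 genes with a mean of at least 10 CPM, the level above which every tested member lay. The same background was 28.3% of all genes tested in the higher direction and 28.8% in the lower direction, and among genes of at least 10 CPM it was 36.0% and 29.3%. The median log2 fold change of the members was 0.01, beside -0.02 over all genes tested. The median size of the change, without its sign, was 0.10 on the log2 scale for the members, 0.28 over all genes tested and 0.24 over genes of at least 10 CPM. A change over 1.2-fold was seen in 13 members, which is 16.5% of those tested, beside 52.5% of all genes tested and 45.7% of genes of at least 10 CPM. NDUFA9 was the 1 member that changed over 1.5-fold, beside 23.6% of all genes tested and 17.5% of genes of at least 10 CPM. The groups did not overlap in 33 members, 41.8%, beside 61.1% of all genes tested and 68.2% of genes of at least 10 CPM.

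The balance of rises and falls depended on the scaling. With scaling by library size alone, 4 members were higher and 49 lower, beside 16.7% and 49.2% of all genes. With upper-quartile factors the split was 4 higher and 32 lower, beside 20.5% and 40.5% of all genes. These scalings moved the median of all genes to -0.22 and -0.14 on the log2 scale, and the median of the members lay 0.033 above that of all genes under each scaling. By library size alone the sign of the log2 fold change turned negative for NDUFS8, SDHC, UQCRC2, COX5A, COX6A1, COX6B1, ATP5PD and ATP5F1B, which were called higher with TMM scaling, and with upper-quartile factors it did so for ATP5F1B. Leaving out vehicle replicate 3 lowered the count of higher members from 19 to 9. Called in the same direction in all 16 refits with another scaling, filter, tool or set of libraries were NDUFA9, NDUFB4, SDHA and COX7B among the higher members, and UQCRB, ATP5MG and ATP5F1E among the lower ones. SDHA did not pass when counted together with its pseudogene copies, as described with complex II.

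**Figure D1:**
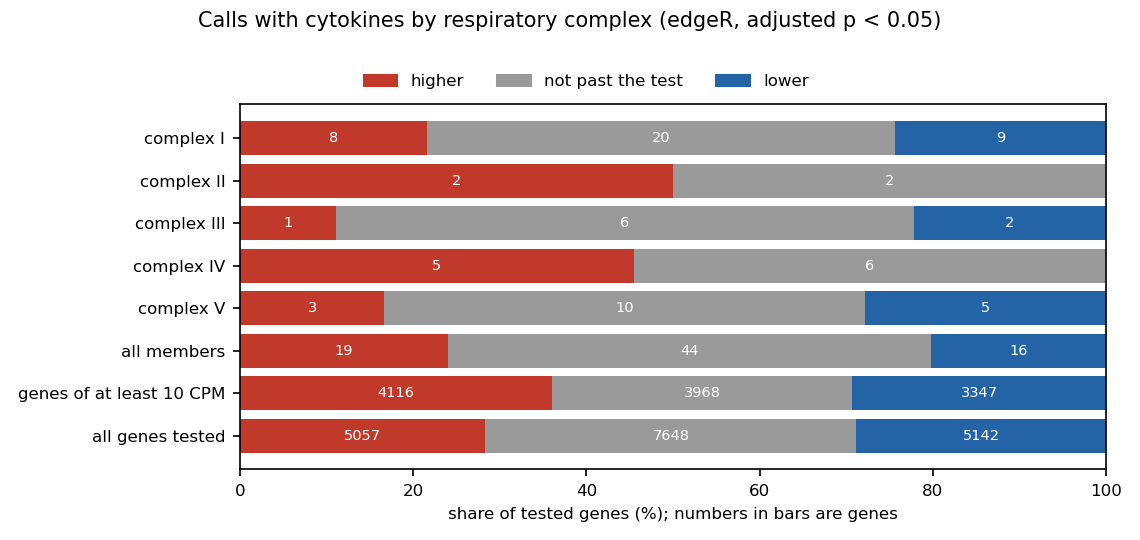
Share of tested genes that were higher, not past the test or lower with cytokines, for each complex, all members and 2 backgrounds. The x axis is the percentage of tested genes, the numbers inside the bars are genes, and a call is an adjusted p under 0.05 in edgeR. Complexes II and IV had no lower call, and all members together had 19 higher and 16 lower.

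Stretches of the promoters of 5 of these 7 genes are shown because they belong to the members with the most stable changes, 4 higher and ATP5F1E lower. Each is 120 bases long, reads 5′ to 3′ on the gene's strand and ends just before the more upstream of the RefSeq and GENCODE 29 gene starts. The sequences are from RefSeq on GRCh38.p14, and capitals mark GCGC, any 2 bases and GCGC, a loosened form of the palindromic site of NRF1, a transcription factor known for driving respiratory chain genes.
NDUFA9, chr12:4648975-4649094, plus strand: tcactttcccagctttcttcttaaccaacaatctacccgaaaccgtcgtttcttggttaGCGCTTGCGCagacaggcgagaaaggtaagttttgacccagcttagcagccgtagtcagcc
NDUFB4, chr3:120596189-120596308, plus strand: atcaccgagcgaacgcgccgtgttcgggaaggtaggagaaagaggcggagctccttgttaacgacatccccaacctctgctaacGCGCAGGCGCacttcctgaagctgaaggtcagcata
SDHA, chr5:218121-218240, plus strand: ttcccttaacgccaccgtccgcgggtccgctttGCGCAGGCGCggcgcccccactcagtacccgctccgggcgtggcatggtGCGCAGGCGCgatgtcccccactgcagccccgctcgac
COX7B, chrX:77899318-77899437, plus strand: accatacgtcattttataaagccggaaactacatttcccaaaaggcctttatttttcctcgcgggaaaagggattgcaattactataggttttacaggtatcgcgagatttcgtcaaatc
ATP5F1E, chr20:59032383-59032502, minus strand: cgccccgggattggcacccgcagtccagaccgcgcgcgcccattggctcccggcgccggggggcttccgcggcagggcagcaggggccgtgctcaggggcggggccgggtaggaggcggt
The capitals occur once in the NDUFA9 and NDUFB4 stretches, at 2 places in SDHA, and in neither the COX7B nor the ATP5F1E stretch. The lower genes UQCRB and ATP5MG are not shown, so these stretches do not compare higher with lower members.

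Over whole promoter windows, 250 bases before to 50 after the RefSeq start, 69 of the 86 members had an entry, and both strands were searched. The loosened NRF1 site was in 18 of the 69 (26.1%), beside 15.6% of the promoters of tested genes and 8.78% of all 27305 promoters. This form was chosen after values and sequences were seen, so its shares are a description only. The strict NRF1 site, which is the loosened form with A and T as the middle bases, was in 4 members (5.80%, against 2.25% for tested genes and 1.36% of all promoters), namely NDUFA8, NDUFB4, SDHD and ATP5F1C. The ETS core ACCGGAAG was in 5 members (7.25%, against 4.15% for tested genes and 2.32% of all promoters), and the YY1 core, AAGATGG followed directly by CGGC, in 4 (5.80%, against 1.89% for tested genes and 0.916% of all promoters), among them NDUFA9 and SDHB. The core of the interferon-stimulated response element, GAAA, any 2 bases and GAAA, was in 0 of the 69, and 2.86% of the promoters of tested genes and 3.65% of all promoters hold it. It too was chosen after values and sequences were seen. By direction, the loosened NRF1 site was in 3 of 15 higher, 4 of 13 lower and 10 of 37 members not past the test. The higher ones are NDUFA9, NDUFB4 and SDHA, all shown above. The lower ones are NDUFA12, NDUFB10, ATP5F1C and ATP5MJ, none of them shown. A match is a description of these letters and was not tested for binding.

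Complex I had 8 members higher, 9 lower and 20 not past the test among its 37, with a median log2 fold change of 0.02. Leaving out vehicle replicate 3 or cytokine replicate 3 left 5 higher, and leaving out cytokine replicate 1 left 5 lower. NDUFA9, an accessory subunit of the matrix arm, had the largest change of any member. Its level was 26.9, 25.9 and 27.6 CPM in vehicle replicates 1 to 3 and 41.9, 42.1 and 42.8 CPM in cytokine replicates 1 to 3. Every cytokine library lay well above every vehicle library, and the spread within each group was under 1 CPM (SD 0.849 and 0.450, n = 3 each). The log2 fold change was 0.65 (SE 0.064, edgeR adjusted p = 5.82e-10), a 1.57-fold rise. The gene lies at chr12:4649095-4694317 on the plus strand (GENCODE 29, GRCh38). On the same strand 10.6% of its exon bases are shared with AC005833.1 and 5.83% with AC005832.4, so its value is uncertain.

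NDUFB4, an accessory subunit of the membrane arm, gave 39.4, 44.7 and 41.1 CPM with vehicle and 52.6, 55.0 and 56.0 CPM with cytokines. The lowest cytokine library was above the highest vehicle library, with a log2 fold change of 0.38 (SE 0.060, edgeR adjusted p = 3.39e-06). NDUFA13, another subunit of the membrane arm, rose from 44.6 ± 2.77 to 53.0 ± 3.69 CPM (SD, n = 3), with a log2 fold change of 0.24. NDUFS8, a core subunit that carries iron-sulfur clusters toward the quinone site, gave 46.1, 46.1 and 44.6 CPM with vehicle and 51.1, 52.3 and 52.6 CPM with cytokines. Its groups did not overlap, and the log2 fold change was 0.19 (SE 0.057, edgeR adjusted p = 0.00424).

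The 3 largest falls of complex I without overlap were in the membrane arm. NDUFA10 gave 112, 116 and 112 CPM with vehicle and 94.1, 97.3 and 97.6 CPM with cytokines, a log2 fold change of -0.24 (SE 0.046, edgeR adjusted p = 7.49e-05). NDUFB10 gave 30.8, 32.1 and 28.3 CPM against 22.3, 24.4 and 25.9 CPM, a log2 fold change of -0.32 (SE 0.075, edgeR adjusted p = 0.000646). In both genes all cytokine libraries were below all vehicle libraries. NDUFC1 fell from 15.4 ± 1.89 to 12.7 ± 0.853 CPM (SD, n = 3), with a log2 fold change of -0.30 and an edgeR adjusted p of 0.00847. That adjusted p was 0.0879 without vehicle replicate 2 and 0.0707 without cytokine replicate 1. NDUFA12, of the matrix arm, gave 27.5, 26.8 and 27.0 CPM with vehicle and 20.2, 24.9 and 24.8 CPM with cytokines, so that cytokine replicate 1 stood lower than the rest. Its log2 fold change of -0.22 (edgeR adjusted p = 0.0187) became -0.11 (adjusted p = 0.260) without that library, and its adjusted p was 0.0650 without vehicle replicate 3.

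By arm, 3 of 16 matrix-arm members rose and 2 fell, while 5 of 20 membrane-arm members rose and 7 fell. The called share was 31.25% in the matrix arm and 60.0% in the membrane arm. Beside these, 57.1% of all genes tested and 65.3% of genes of at least 10 CPM were called. A difference between the arms was not tested. Among the 7 core subunits, which carry the redox centres, 2 rose, 1 fell and 4 did not pass. The lower one, NDUFV1, went from 113 ± 3.44 to 103 ± 5.15 CPM (SD, n = 3), a log2 fold change of -0.13 (edgeR adjusted p = 0.0210). NDUFS1, another core subunit, did not pass, with 148 ± 6.51 CPM against 151 ± 3.90 CPM. NDUFB1 had the lowest log2 fold change of all members, -0.43 (SE 0.123, edgeR adjusted p = 0.00607), yet its groups overlapped, with 17.8, 22.7 and 19.8 CPM against 12, 15.1 and 18.4 CPM. It is named here after its values were seen.

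**Figure D2:**
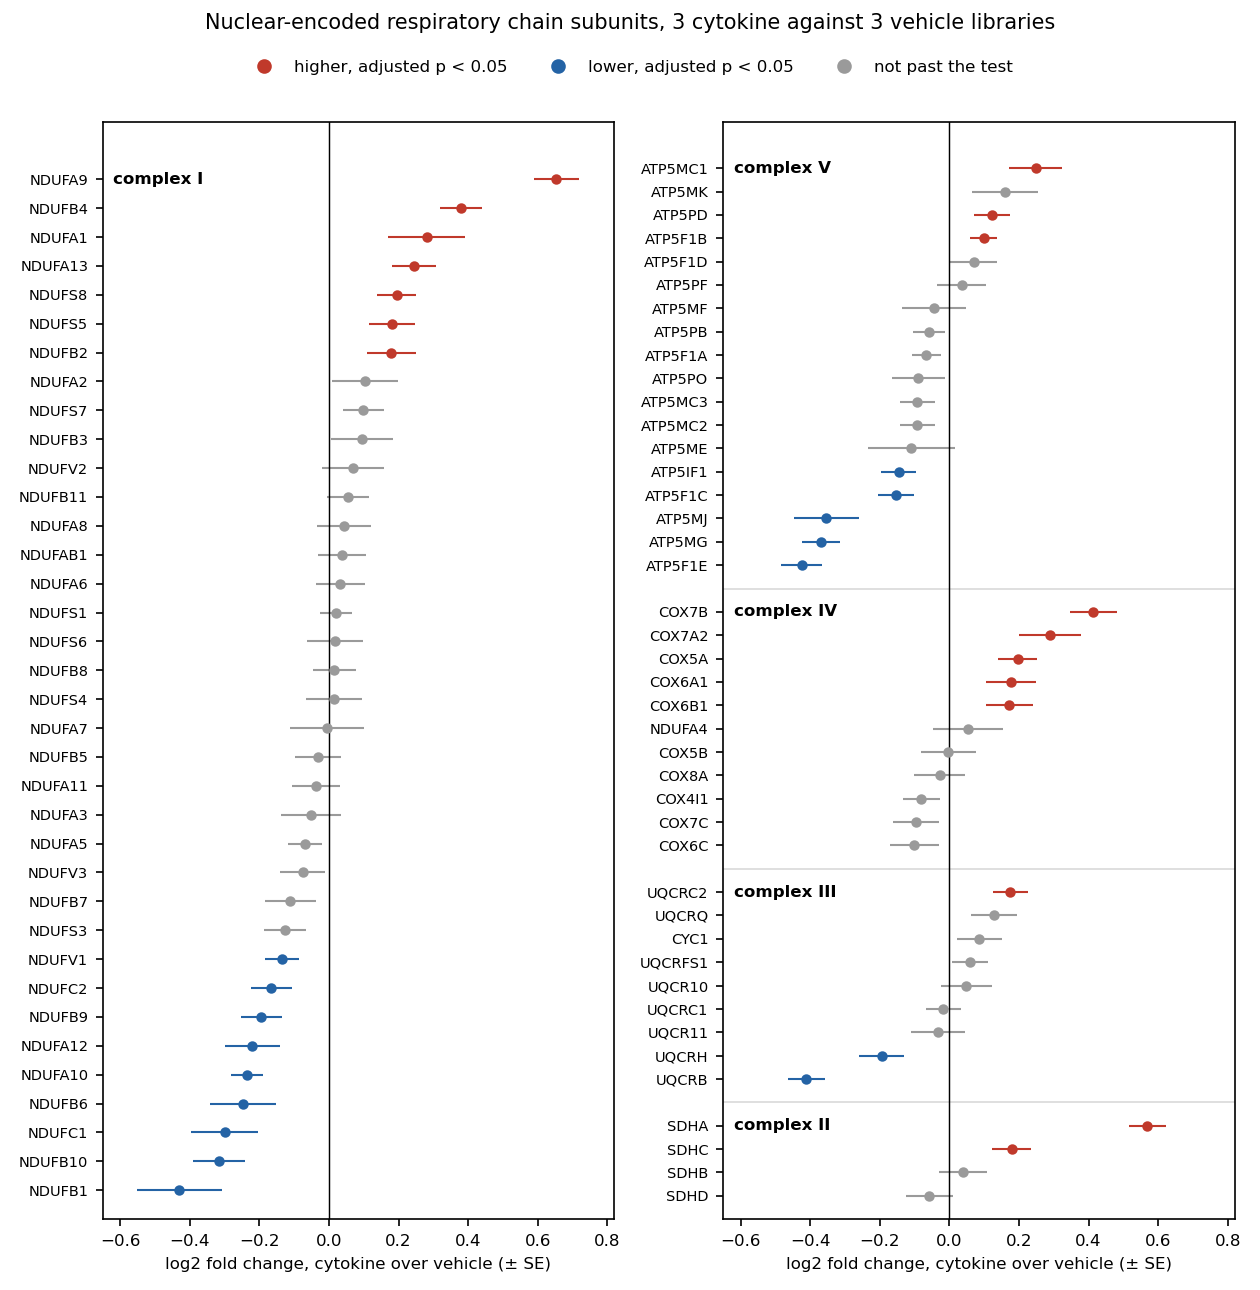
Log2 fold change of 78 of the 79 tested members, cytokine over vehicle, with bars of 1 SE from edgeR, grouped by complex. Colours give the call at an adjusted p of 0.05. NDUFA9 at 0.65 and SDHA at 0.57 stand to the right of all others, and the lowest values are near -0.43.

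Complex II, whose 4 subunits are all nuclear-encoded, had 2 members higher and 0 lower in edgeR, with 0 lower also at an unadjusted p under 0.05 and by DESeq2. By library size alone it had 1 higher and 2 lower, and with upper-quartile factors 1 and 1. SDHA, the flavoprotein that oxidises succinate in the citric acid cycle, gave 48.3, 47.9 and 48.4 CPM with vehicle and 71.0, 69.4 and 74.2 CPM with cytokines. The groups were far apart relative to their spread, with a log2 fold change of 0.57 (SE 0.054, edgeR adjusted p = 2.87e-10). SDHA has 3 pseudogene copies in the table, SDHAP1, SDHAP2 and SDHAP4, whose levels together exceeded its own, at 131 CPM with vehicle and 119 CPM with cytokines. Reads of near-identical copies can be split between genes by the counting, so the value for SDHA is uncertain. SDHAP4 fell by 0.20 on the log2 scale (edgeR adjusted p = 0.0110), SDHAP1 changed by -0.16 (adjusted p = 0.0510) and SDHAP2 by -0.05 (adjusted p = 0.519). Counted together as 1 gene, SDHA and its copies gave 189, 168 and 179 CPM with vehicle and 189, 189 and 194 CPM with cytokines. This sum did not pass the test, with a log2 fold change of 0.10 (SE 0.046, edgeR adjusted p = 0.0689), an alternative added after the data were seen.

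SDHC, a membrane anchor that binds the haem and coenzyme Q, gave 49.3, 47.6 and 46.9 CPM with vehicle and 54.6, 55.3 and 51.9 CPM with cytokines. Its groups did not overlap, with a log2 fold change of 0.18 (SE 0.057, edgeR adjusted p = 0.00832), and the adjusted p was 0.0567 without vehicle replicate 3. The iron-sulfur subunit SDHB gave 26.4, 30.8 and 28.8 CPM against 29.6, 29.5 and 30.1 CPM, and the other anchor SDHD gave 29.7, 33.9 and 32.9 CPM against 30.4, 31.4 and 32.0 CPM. Both overlapped between groups and did not pass, with log2 fold changes of 0.04 (edgeR adjusted p = 0.664) and -0.06 (adjusted p = 0.481). In edgeR with TMM scaling, the catalytic and anchoring pairs of this complex were thus each made up of 1 member that was called and 1 that was not. Neither call was firm. SDHA did not pass when counted with its copies. SDHC did not pass by library size alone (-0.02, edgeR adjusted p = 0.728) or with upper-quartile factors (0.06, adjusted p = 0.402).

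Complex III had 1 member higher, 2 lower and 6 not past the test. It had 2 higher without vehicle replicate 1 or cytokine replicate 1, and 1 lower without vehicle replicate 2, cytokine replicate 1 or cytokine replicate 2. UQCRB, a small subunit next to the quinone site, gave 119, 140 and 132 CPM with vehicle and 93.9, 104 and 98.4 CPM with cytokines. All cytokine libraries were below all vehicle libraries, with a log2 fold change of -0.41 (SE 0.053, edgeR adjusted p = 1.30e-07). UQCRC2, a core protein of the matrix side, gave 84.4, 94.1 and 89.3 CPM against 98.7, 105 and 101 CPM, a log2 fold change of 0.18 (SE 0.050, edgeR adjusted p = 0.00362) without overlap. Its partner UQCRC1 stayed at 116 ± 4.49 and 115 ± 5.95 CPM (SD, n = 3). The subunits that carry electrons, cytochrome c1 (CYC1) and the Rieske protein (UQCRFS1), did not pass, with log2 fold changes of 0.09 and 0.06. UQCRH, which sits beside cytochrome c1, was the other lower member, at -0.19, with groups that overlapped.

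Complex IV had 5 members higher, 0 lower and 6 not past the test among 11 tested. At an unadjusted p under 0.05 in edgeR, and by DESeq2, the number lower was also 0, whereas it was 5 by library size alone and 3 with upper-quartile factors, each with 1 higher. COX7B gave 28.1, 28.8 and 28.3 CPM with vehicle and 37.0, 36.2 and 40.3 CPM with cytokines. Its vehicle libraries were within 1 CPM of each other and all cytokine libraries lay above them, with a log2 fold change of 0.41 (SE 0.067, edgeR adjusted p = 4.52e-06). COX5A, which binds the subunit COX4 on the matrix side, gave 57.7, 62.2 and 58.1 CPM against 65, 66.3 and 72.8 CPM. It did not overlap, with a log2 fold change of 0.20 (SE 0.057, edgeR adjusted p = 0.00393).

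A further 3 rises of complex IV came with overlapping groups. COX7A2, the isoform of subunit VIIa found in most tissues, gave 42.3, 48.2 and 42.9 CPM with vehicle and 46.0, 56.1 and 61.6 CPM with cytokines, a log2 fold change of 0.29 (edgeR adjusted p = 0.0101). Its adjusted p was 0.0786 without vehicle replicate 3. COX6A1 and COX6B1 had log2 fold changes of 0.18 and 0.17 (edgeR adjusted p = 0.0339 and 0.0309). For COX6A1 the adjusted p was 0.0784 without vehicle replicate 1, 0.181 without vehicle replicate 3 and 0.199 without cytokine replicate 3. For COX6B1 it was 0.0572 and 0.193 without vehicle replicates 1 and 3, and 0.0877 and 0.0909 without cytokine replicates 2 and 3. Leaving out vehicle replicate 1, vehicle replicate 3 or cytokine replicate 3 left 3, 2 and 3 higher members in the complex, and 1 member was lower without cytokine replicate 2 or 3. COX4I1, a regulatory subunit, gave 189, 194 and 186 CPM with vehicle and 170, 169 and 199 CPM with cytokines. Cytokine replicate 3 was above all vehicle libraries and the other two were below them, and the log2 fold change of -0.08 did not pass (edgeR adjusted p = 0.197). Without cytokine replicate 3 it was -0.15 (adjusted p = 0.00520). COX8A and NDUFA4, a subunit first assigned to complex I, did not pass either, at -0.03 and 0.05. Other genes on the same strand share 34.5% of the exon bases of COX8A, and also 18.5% for NDUFC1 and 16.1% for NDUFA13 of complex I, so these values are uncertain as well.

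The isoforms of complex IV known from heart, muscle, lung and testis were nearly silent. COX6A2 and COX7A1, the heart and muscle isoforms, had 0 counts in all 6 libraries. COX7B2 had 1 count in cytokine replicate 3 and 0 elsewhere, COX4I2, an isoform known from lung and from low oxygen, had at most 3 counts, and COX8C at most 1.5. COX6B2, the testis isoform, had 3 to 5.5 counts with vehicle and 5 to 8 with cytokines. ATP5MGL, a retrocopy of the complex V gene ATP5MG, had at most 1 count. None of these 7 genes could be tested, and their ubiquitous partners COX4I1, COX6A1, COX6B1, COX7A2, COX7B and COX8A each had at least 28.1 CPM in every library.

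Complex V had 3 members higher, 5 lower and 10 not past the test among 18 tested, with a median log2 fold change of -0.08. ATP5F1E, the epsilon subunit of the central stalk, gave 172, 210 and 186 CPM with vehicle and 132, 142 and 151 CPM with cytokines. All cytokine libraries lay below the vehicle libraries, with a log2 fold change of -0.42 (SE 0.059, edgeR adjusted p = 1.35e-06). Its exons overlap those of TUBB1 on the opposite strand over 23.2% of their bases, and the log2 fold change counted for TUBB1 was -1.02. The sources used here do not give the strand setting of the counting, so reads of the 2 genes may not be told apart there. ATP5MG, the membrane subunit g at which synthase dimers meet, gave 74.4, 76.5 and 72.9 CPM against 54.1, 58.6 and 60.6 CPM. Its log2 fold change was -0.37 (SE 0.055, edgeR adjusted p = 1.18e-06), again with no overlap between groups. AP001267.5 shares 8.19% of the ATP5MG exon bases on the same strand and AP001267.1 shares 7.72% on the opposite strand, so this value is uncertain too. ATP5MJ, a small membrane subunit, fell from 22.2 ± 0.658 to 17.4 ± 2.85 CPM (SD, n = 3), with a log2 fold change of -0.35 (edgeR adjusted p = 0.00190).

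The other parts of the synthase moved less. The catalytic beta subunit ATP5F1B gave 385, 390 and 382 CPM with vehicle and 415, 410 and 414 CPM with cytokines. Its groups were tight and apart, yet the log2 fold change was only 0.10 (SE 0.039, edgeR adjusted p = 0.0308). The adjusted p was 0.0513 without vehicle replicate 1, 0.108 without vehicle replicate 3 and 0.0650 without cytokine replicate 1. The alpha subunit ATP5F1A, its partner in the catalytic ring, gave 391 ± 9.86 against 374 ± 12.9 CPM (SD, n = 3) and did not pass (-0.07, edgeR adjusted p = 0.174). ATP5F1C, the gamma subunit that turns inside the ring, fell from 80.4 ± 3.56 to 72.4 ± 1.64 CPM, a log2 fold change of -0.15 (edgeR adjusted p = 0.0117), and did not pass without vehicle replicate 2 (adjusted p = 0.116).

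The 3 genes for the c-subunit encode the same mature protein behind different targeting peptides. ATP5MC1 gave 24.9, 26.1 and 21.6 CPM with vehicle and 27.0, 27.9 and 29.8 CPM with cytokines. It rose by 0.25 on the log2 scale (SE 0.077, edgeR adjusted p = 0.00745), and the adjusted p was 0.189 without vehicle replicate 3, the lowest library. ATP5MC2 gave 107, 105 and 96.6 CPM against 97.7, 97.2 and 92.6 CPM, and ATP5MC3 gave 87.4, 95.6 and 90.2 CPM against 82.9, 83.9 and 90.2 CPM. Both had log2 fold changes of -0.09 and did not pass (edgeR adjusted p = 0.12 and 0.129), although ATP5MC2 did without vehicle replicate 3 (adjusted p = 0.0421). ATP5IF1, the inhibitor that stops the synthase from running backwards, gave 87.5, 85.2 and 85.7 CPM against 78.4, 74.8 and 79.8 CPM. Its log2 fold change was -0.15 (SE 0.049, edgeR adjusted p = 0.0125), without overlap, and its adjusted p was 0.0718 without cytokine replicate 2. Of the 4 peripheral stalk subunits only ATP5PD was called, at 0.12 (edgeR adjusted p = 0.0414), and leaving out vehicle replicate 1 or 3 or cytokine replicate 1 or 3 gave adjusted p-values of 0.0871, 0.11, 0.0629 and 0.0736. Without vehicle replicate 1 the complex had 1 higher member, and without vehicle replicate 3 it had 0.

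**Figure D3:**
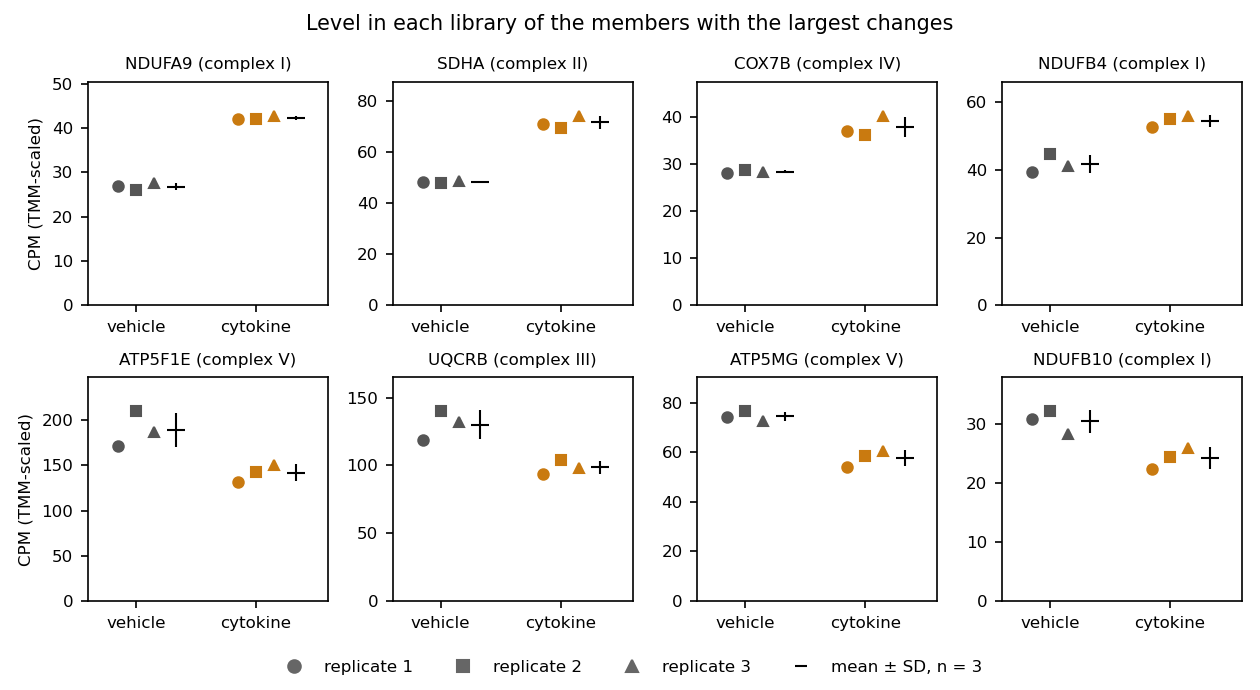
Level of 8 members in each library, in CPM scaled with TMM factors on an axis that starts at 0, with the mean ± SD of each group (n = 3). The 4 genes of the upper row are higher in every cytokine library, and the 4 of the lower row are lower in every cytokine library.

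Levels of different members were compared as vehicle CPM per kilobase of exon, taken over the union of annotated exons. ATP5F1B led complex V at 166 CPM per kilobase, ahead of ATP5IF1 at 38.7, and it also led with the length of its principal transcript (210 CPM per kilobase). In complex IV the leading member depended on the length used. COX8A led complex IV at 73.0 CPM per kilobase of exon union, while COX4I1 led it at 265 CPM per kilobase of principal transcript. SDHB at 11.6 and SDHD at 11.3 CPM per kilobase of exon union differed by less than their SD over libraries (0.897 and 0.770), and SDHA stood at 5.75. Per kilobase of principal transcript the order of these 3 was the same but closer, at 24.8, 22.4 and 20.2 CPM.

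Within each group the same library was often the highest for these genes. Cytokine replicate 3 was the highest of its group in 60 of the 79 tested members (75.9%), beside 37.0% of the 11431 genes of at least 10 CPM. Vehicle replicate 2 was the highest of its group in 60 members as well (75.9%, beside 38.4%). The median log2 ratio of cytokine replicate 3 over cytokine replicate 1 was 0.14 in the members and -0.0014 over genes of at least 10 CPM, and 69 of 79 members had a ratio above 0. Without vehicle replicate 2 and cytokine replicate 3, an alternative added after the data were seen, 14 members were higher and 14 lower.

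Short transcripts showed this library pattern most. A principal transcript length was at hand for 74 of the 79 tested members and for 7480 of the 11431 genes of at least 10 CPM. The median was 917 bases in these members, beside 3020.5 bases in these genes. Cytokine replicate 3 was the highest of its group in 88.4% of the 43 members with a principal transcript of at most 1000 bases and in 58.1% of the 31 longer ones. Over the genes of at least 10 CPM with such a length the corresponding shares were 70.2% of 493 and 36.4% of 6987. Across the 74 members with a principal transcript, Spearman's rho with transcript length was -0.51 for the ratio of cytokine replicate 3 over 1 and 0.03 for the log2 fold change between groups. These correlations are across genes that share their libraries, and genes are not independent replicates. The part of transcript length in the calls was not tested.

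**Figure D4:**
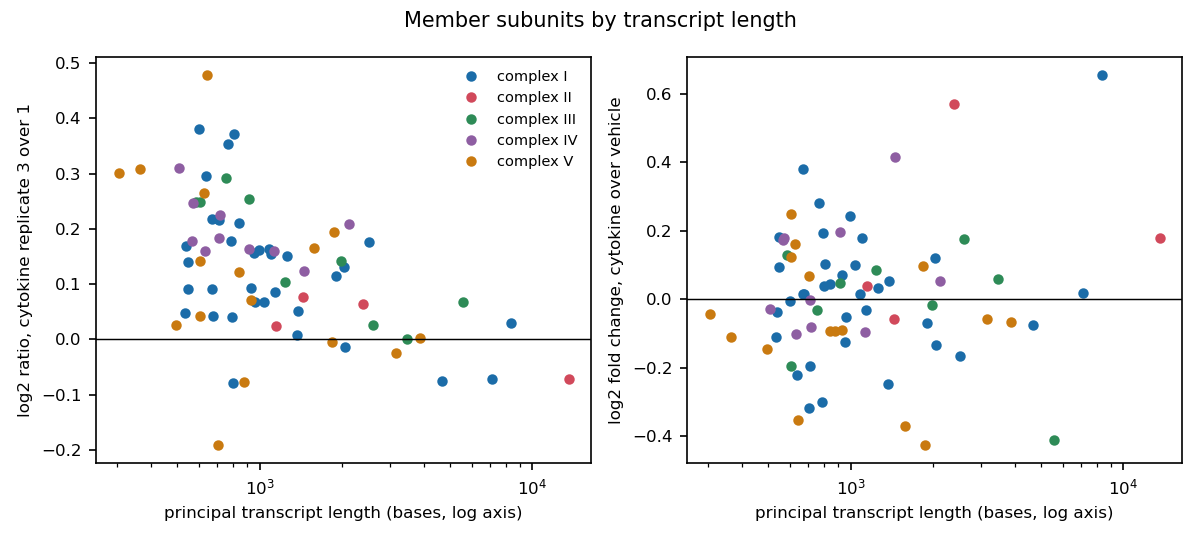
Members by principal transcript length (bases, log axis), with the log2 ratio of cytokine replicate 3 over cytokine replicate 1 on the left and the log2 fold change of cytokine over vehicle on the right, coloured by complex. Ratios between the 2 cytokine libraries are mostly above 0 for short transcripts, whereas fold changes between groups lie on both sides of 0 at all lengths.

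Of the 13 subunits encoded by mitochondrial DNA, 8 were higher, 1 was lower and 4 did not pass under the scaling used here, with a median log2 fold change of 0.13. The 9 called were 69.2%, beside 65.3% of genes of at least 10 CPM, and scaling by library size alone gave 0 higher and 5 lower, and upper-quartile factors 1 higher and 3 lower. MT-ND2, a membrane subunit of complex I, rose from 1642 ± 55.8 to 1951 ± 58.5 CPM (SD, n = 3), a log2 fold change of 0.25 (edgeR adjusted p = 1.59e-06). MT-ND5 had a log2 fold change of 0.20 under the scaling used here and -0.0009 by library size alone. MT-ND3 was the 1 lower gene, at -0.27 (edgeR adjusted p = 0.0414), and lost the call without vehicle replicate 2, vehicle replicate 3 or cytokine replicate 3 (adjusted p = 0.169, 0.115 and 0.11). MT-CO1, the catalytic subunit of complex IV, gave 9145 CPM in both groups.

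Assembly factors build the complexes but are not part of them. Of 57, 8 rose, 18 fell and 31 did not pass, with a median log2 fold change of -0.08. The 26 called were 45.6%, beside 57.1% of all genes tested, and by library size alone the split was 4 higher and 37 lower. HIGD1A, a hypoxia-induced factor of complexes III and IV, rose from 140 ± 4.31 to 211 ± 5.01 CPM (SD, n = 3), with a log2 fold change of 0.58 (edgeR adjusted p = 1.99e-12). Its value is uncertain, since 29.1% of its exon bases are shared on the same strand with AC099329.1 and 20.1% with AC006059.2. SCO2, a copper chaperone of complex IV, was counted at 8.58, 4.59 and 6.26 CPM with vehicle and 72.7, 61.0 and 67.6 CPM with cytokines, a log2 fold change of 3.44. This value is uncertain too, because 28.3% of its exon bases are shared on the same strand with TYMP, an interferon-induced gene whose log2 fold change was 4.90. Another SCO2 entry of the annotation shares 71.7% of them on the same strand, and U62317.2 shares 41.7% on the opposite strand. The lower factors included SDHAF3, of complex II, at -0.55, and NUBPL, which delivers iron-sulfur clusters to complex I, at -0.48. SDHAF3 did not pass without vehicle replicate 2 (edgeR adjusted p = 0.134), and NUBPL did not without vehicle replicate 3 (adjusted p = 0.118). Without vehicle replicate 3 the list had 5 higher and 11 lower.

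Among 15 genes of coenzyme Q synthesis and cytochrome c, 6 rose, 2 fell and 7 did not pass, so that 53.3% were called, beside 57.1% of all genes tested. COQ8A and COQ8B, related kinase-like proteins of coenzyme Q synthesis, moved in opposite directions. COQ8A gave 30.8, 31.1 and 29.7 CPM with vehicle and 12.8, 15.5 and 13.5 CPM with cytokines (log2 fold change -1.13, edgeR adjusted p = 4.33e-13), and COQ8B rose from 74.2 ± 4.87 to 124 ± 0.879 CPM (0.75, edgeR adjusted p = 1.20e-13). HCCS, which attaches haem to cytochrome c, rose by 0.66 on the log2 scale, cytochrome c itself (CYCS) rose by 0.22, and COQ10A fell by 0.33. CYCS did not pass by library size alone (0.01, edgeR adjusted p = 0.834) or with upper-quartile factors (0.09, adjusted p = 0.128).

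Of 13 regulators of mitochondrial gene expression tested, 3 rose, 4 fell and 6 did not pass. The 7 called were 53.8%, beside 57.1% of all genes tested, and the coactivators PPARGC1A and PPARGC1B had too few counts to test. PPRC1, a coactivator related to PPARGC1A, rose from 36.2 ± 2.7 to 61.9 ± 2.94 CPM (SD, n = 3), a log2 fold change of 0.78 (edgeR adjusted p = 9.31e-12), and GABPB1, a subunit of the ETS-family GA-binding protein, rose by 0.66. TFB1M, which methylates mitochondrial ribosomal RNA, fell by 0.47, and POLG2, of the mitochondrial DNA polymerase, fell by 0.39. NRF1 was called at -0.23 (edgeR adjusted p = 0.0269) and TFAM, which packages mitochondrial DNA, at -0.18 (adjusted p = 0.0211). NRF1 lost its call without vehicle replicate 2, cytokine replicate 1 or cytokine replicate 2 (adjusted p = 0.240, 0.113 and 0.0932). TFAM lost it without vehicle replicate 2, vehicle replicate 3 or cytokine replicate 1 (adjusted p = 0.0972, 0.0847 and 0.147). Without vehicle replicate 2 the list had 2 lower genes.

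Of 6 substitute or paralogous subunits tested, 0 rose in edgeR, likewise at an unadjusted p under 0.05 and by DESeq2, 2 fell and 4 did not pass. The 2 called were 33.3%, beside 57.1% of all genes tested, of which 28.8% were lower. C15orf48, a relative of NDUFA4 that can replace it in complex IV during inflammation, was at 1.75, 2.11 and 2.16 CPM with vehicle and at 0.53, 0.71 and 1.16 CPM with cytokines. All cytokine libraries were lower, with a log2 fold change of -1.37 (SE 0.286, edgeR adjusted p = 0.000153), at a depth of 8.5 to 37 counts per library. This value is uncertain, since AC025580.2 shares 15.2% of the C15orf48 exon bases and MIR147B 5.69% on the same strand. AC025580.1 shares 11.6% on the opposite strand. COX7A2L, a factor of supercomplexes of complexes III and IV, fell from 118 ± 1.27 to 104 ± 4.02 CPM (-0.19, edgeR adjusted p = 0.00109). NDUFA4L2, the hypoxia-induced relative of NDUFA4, had a log2 fold change of 0.31 and did not pass (edgeR adjusted p = 0.107), but did without vehicle replicate 3 (adjusted p = 0.0405) or cytokine replicate 3 (adjusted p = 0.0383).

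In the authors' deposited table, 13 members were higher and 13 lower at an FDR of 0.05. All 26 were also called here with the same sign.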

How the data were processed

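Libraries of total RNA were made with a directional kit, per the labels' protocols. Tools listed without roles included cutadapt 2.10, STAR 2.7.5a and HTSeq 0.12.4, and the build was GRCh38, per the submitters' processing notes. Strand setting and annotation release are not given in the sources used here. For each gene and library the authors deposited an estimated count, not normalised and not always whole, per the file headers and values. The same table holds the authors' own log2 fold change and log2 CPM, an F score, and p-value and FDR columns, per the file headers. From it, fold change and FDR served to count calls. NT columns were assigned to vehicle because the remaining 3 columns bear the cytokine name.

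Estimated counts were rounded, filtered with filterByExpr, scaled with TMM (factors 1.06 to 1.08 with vehicle, 0.931 to 0.935 with cytokines) and tested with edgeR 4.0.16 in R 4.3.3, by a robust quasi-likelihood fit on group with Benjamini-Hochberg adjustment over all 17847 genes at 0.05. The planned design had named counts as deposited. The scripts were tested on simulated data. Replicates differed by a chi-square of 1.37 to 2.45 per gene, so none was counted as a copy. Gene positions and lengths are from GENCODE 29.

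The members and lists were chosen with earlier results of these data known. The loosened NRF1 motif and the interferon-stimulated response element were chosen after values and sequences were seen. Genes were named by rule: per complex up to 4 higher and 4 lower without overlap and a level of 5 CPM or more in the higher group, or the 2 highest in level where fewer than 2 qualified, plus isoform families, c-subunit genes, ATP5IF1, NDUFA4 and the SDH genes, and up to 2 per direction with at least 1 CPM from each list, plus C15orf48, NDUFA4L2, COX7A2L, PPARGC1A, TFAM, NRF1 and CYCS. NDUFS1, NDUFV1, UQCRC1, UQCRH, CYC1, UQCRFS1, ATP5F1A, NDUFB1 and MT-CO1 were named after their values were seen. Some results are not reported here. Alternatives were DESeq2 1.42.0, other scalings and filters, a replicate block, each library left out, glmTreat against a fold of 1.2 and an adjusted p of 0.01.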

Additional observations from a re-analysis of the deposited data

How the results depend on the processing

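In complexes I to V, members higher and lower were 8, 2, 1, 5, 3 and 9, 0, 2, 0, 5 in the main analysis. By library size alone (all members 4 and 49) they were 2, 1, 0, 1, 0 and 23, 2, 5, 5, 14, and with upper-quartile factors (4 and 32) 2, 1, 0, 1, 0 and 15, 1, 3, 3, 10. DESeq2 with its own filter gave 11 and 7 (4, 2, 1, 3, 1 and 3, 0, 1, 0, 3), and with the count filter 12 and 9 (4, 2, 1, 3, 2 and 4, 0, 2, 0, 3). No count filter gave 16 and 13, with 1 higher in complex V. Against a fold of 1.2 the calls were 4 and 3 (2, 1, 0, 1, 0 and 0, 0, 1, 0, 2), and at an adjusted p of 0.01 they were 10 and 9 (4, 2, 1, 2, 1 and 5, 0, 1, 0, 3). Without vehicle replicate 2 and cytokine replicate 3, chosen after seeing the data, they were 14 and 14 (5, 2, 1, 4, 2 and 7, 0, 2, 1, 4). Leaving out 1 library at a time gave 9 to 19 higher and 11 to 18 lower, by complex 5 to 8, 1 to 2, 1 to 2, 2 to 5 and 0 to 4 higher and 5 to 10, 0 to 0, 1 to 2, 0 to 1 and 4 to 7 lower.

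For assembly factors, mitochondrially encoded subunits, coenzyme Q and cytochrome c, regulators and substitute subunits, calls higher and lower were 8, 8, 6, 3, 0 and 18, 1, 2, 4, 2 in the main analysis. They were 4, 0, 5, 3, 0 and 37, 5, 5, 9, 4 by library size alone, 5, 1, 5, 3, 0 and 31, 3, 3, 7, 3 with upper-quartile factors, 6, 9, 6, 3, 0 and 5, 0, 2, 2, 2 by DESeq2 with its own filter, 6, 9, 6, 3, 0 and 8, 0, 2, 2, 2 by DESeq2 with the count filter, 6, 8, 6, 3, 0 and 16, 2, 2, 2, 2 with no count filter, 4, 0, 5, 2, 0 and 0, 0, 1, 1, 1 against a fold of 1.2, 6, 7, 6, 3, 0 and 12, 0, 2, 2, 2 at an adjusted p of 0.01, and 10, 9, 6, 3, 0 and 11, 0, 2, 2, 2 without vehicle replicate 2 and cytokine replicate 3. Leaving out 1 library gave 5 to 10, 7 to 9, 6 to 7, 3 to 3 and 0 to 1 higher and 11 to 17, 0 to 2, 2 to 3, 2 to 4 and 2 to 3 lower.

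By library size alone the log2 fold change turned negative for NDUFS8 (-0.0077), SDHC (-0.0236), UQCRC2 (-0.0269), COX5A (-0.0058), COX6A1 (-0.0243), COX6B1 (-0.0293), ATP5PD (-0.0792), ATP5F1B (-0.1036), SDHB (-0.1642) and MT-ND5 (-0.0009), and with upper-quartile factors for ATP5F1B (-0.0239). Deviations of same-numbered libraries correlated at 0.081, 0.046 and -0.104 over 11431 genes, and those of differently numbered ones at -0.125 to 0.109. Deviations from a mean of 3 libraries are bound to each other, so these values do not settle whether replicate numbers pair the libraries. A replicate block gave 19 higher and 16 lower members, with ATP5F1B at an adjusted p of 0.0508 in edgeR. DESeq2 size factors and a minimum of 1 CPM in 3 libraries changed no count by over 1.5 times. The smallest library, vehicle replicate 1 with 5871143 counts, has the fewest counts behind each level.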

Other observations

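Other machinery of the mitochondrial membranes was looked at with lists chosen after the data were seen. Of 26 subunits of the TOM and TIM complexes, which import nuclear-encoded proteins such as the respiratory subunits, 8 were higher, 4 lower and 14 not past edgeR's test, with a median log2 fold change of 0.08. The 12 called were 46.2%, beside 57.1% of all genes tested. TIMM44, which tethers the import motor to the channel, rose from 40.6 ± 2.52 to 53.3 ± 3.87 CPM (SD, n = 3), a log2 fold change of 0.38 (edgeR adjusted p = 7.96e-06). Both channel paralogues rose, TIMM17A by 0.30 and TIMM17B by 0.34 on the log2 scale. At the outer membrane the receptor TOMM20 fell from 207 ± 9.69 to 183 ± 2.24 CPM (-0.19), the small subunit TOMM7 fell from 45.6 ± 1.79 to 34.4 ± 3.71 CPM (-0.41, edgeR adjusted p = 9.16e-06), and the receptor TOMM70 rose by 0.16.

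Of 20 genes for cristae, fusion and fission, 5 were higher, 3 lower and 12 not past the test. The 8 called were 40.0%, beside 57.1% of all genes tested. CHCHD3, a subunit of the complex that shapes cristae junctions, rose from 50.8 ± 1.49 to 77.9 ± 3.54 CPM (SD, n = 3), a log2 fold change of 0.62 (edgeR adjusted p = 5.47e-11). In the same complex CHCHD6 was called at -0.32 and MICOS10 at -0.20, with adjusted p-values of 0.0259 and 0.0174 in edgeR. DNM1L, the dynamin that divides mitochondria, rose from 97.6 ± 1.95 to 132 ± 1.62 CPM (0.44, edgeR adjusted p = 1.99e-09), and the fusion protein MFN2 rose by 0.25. PHB2, a prohibitin of the inner membrane, fell by 0.29 on the log2 scale. By library size alone the import list had 1 higher and 11 lower and the cristae, fusion and fission list 2 higher and 11 lower, and with upper-quartile factors 4 and 6, and 4 and 8. Over all genes tested the shares were 16.7% higher and 49.2% lower by library size alone, and 20.5% and 40.5% with upper-quartile factors. Of the rises named here, TIMM17A (0.10, edgeR adjusted p = 0.132), TIMM17B (0.14, adjusted p = 0.0527), MFN2 (0.05, adjusted p = 0.316) and TOMM70 (-0.04, adjusted p = 0.480) did not pass by library size alone. TOMM70 did not pass with upper-quartile factors either (0.04, adjusted p = 0.493).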
